A study of Mus musculus with 4 samples.

Results

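The genes described here make cholesterol and fatty acids or control how much of them a cell keeps. They were chosen by name, as 32 of the 49671 genes in the files, and all 32 were found. They comprise 5 SREBP regulators, 16 enzymes of cholesterol synthesis, 6 enzymes of fatty acid synthesis, the cholesterol carrier Stard4, the LXR receptors Nr1h2 and Nr1h3, and the efflux pumps Abca1 and Abcg1. RNA came from splenic CD3+ T cells of female F1 hybrid mice, 4 libraries labelled as biological replicates of 1 group. The mothers were C57BL/6 with a heterozygous Xist deletion and the fathers were Mus musculus castaneus, a cross that skews X inactivation. Culture lasted 48 hours on anti-CD3 bound to the plate (1 µg/ml) with anti-CD28 in the medium (10 µg/ml), which stand in for antigen and costimulation. All 4 cultures also received IMD-0354 at 2.5 µM, a blocker of the kinase IKKβ, which switches on NF-κB signalling. The ages of the mice were not given in the sources used here. There is no unstimulated group and no group without the inhibitor among the 4 samples, so neither stimulation nor the inhibitor was tested. The questions that the files can answer are how high each gene was, how it varied between the 4 animals, and whether its Castaneus and C57BL/6 alleles were read equally.

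Cells sense sterols in the membrane of the endoplasmic reticulum. When sterols are scarce, SCAP carries the membrane-bound factors SREBP1 and SREBP2 to the Golgi, where proteases release the part that enters the nucleus and switches on synthesis genes. When sterols are plentiful, INSIG proteins hold SCAP back, and oxysterols, which are oxidised forms of cholesterol, activate LXR receptors that raise the efflux pumps ABCA1 and ABCG1. In activated T cells SREBP activity is known to supply membrane lipid for growth and division. LXR activity is known to restrain T cell proliferation.

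Promoters are shown for 2 synthesis enzymes and 1 efflux gene, because enzymes and pumps ran in opposite directions between animals, as given further on, and for 2 regulators, which did not share that pattern. Hmgcs1 was the highest enzyme, Cyp51 one of the more variable, Insig1 and Srebf2 are regulators, and Abca1 is an efflux pump. Each line holds 250 bases before and 50 bases from the start site on, 5′ to 3′, from RefSeq on GRCm38.p6, which is the mm10 build. Capitals mark matches on either strand to 4 motifs. These are CCAAT, bound by NF-Y, GGGCGG, bound by Sp1, the E-box CACGTG, and TCACNCCAC, a core of the sterol regulatory element. The windows are chr13:119690101-119690400 on the plus strand, chr5:4104648-4104947 on the minus strand, chr15:82147019-82147318 on the plus strand, chr5:28071162-28071461 on the plus strand and chr4:53159846-53160145 on the minus strand.
Hmgcs1: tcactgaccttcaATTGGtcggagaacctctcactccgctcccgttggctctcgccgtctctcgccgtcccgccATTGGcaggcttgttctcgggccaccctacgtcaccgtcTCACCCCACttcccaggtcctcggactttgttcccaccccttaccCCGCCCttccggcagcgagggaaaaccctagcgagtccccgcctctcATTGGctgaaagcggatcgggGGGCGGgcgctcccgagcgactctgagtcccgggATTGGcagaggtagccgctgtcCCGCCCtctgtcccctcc
Cyp51: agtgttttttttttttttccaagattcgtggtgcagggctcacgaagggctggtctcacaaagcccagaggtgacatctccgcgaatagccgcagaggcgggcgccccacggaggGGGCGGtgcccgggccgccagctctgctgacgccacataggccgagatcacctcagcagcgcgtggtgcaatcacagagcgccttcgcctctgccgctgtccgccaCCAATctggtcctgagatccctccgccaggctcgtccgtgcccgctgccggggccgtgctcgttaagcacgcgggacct
Srebf2: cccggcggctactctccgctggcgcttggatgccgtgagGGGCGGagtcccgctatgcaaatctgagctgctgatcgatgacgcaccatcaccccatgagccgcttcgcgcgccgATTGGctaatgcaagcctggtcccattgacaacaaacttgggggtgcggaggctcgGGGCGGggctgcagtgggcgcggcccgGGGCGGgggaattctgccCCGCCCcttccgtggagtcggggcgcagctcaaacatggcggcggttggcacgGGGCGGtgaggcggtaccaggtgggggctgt
Insig1: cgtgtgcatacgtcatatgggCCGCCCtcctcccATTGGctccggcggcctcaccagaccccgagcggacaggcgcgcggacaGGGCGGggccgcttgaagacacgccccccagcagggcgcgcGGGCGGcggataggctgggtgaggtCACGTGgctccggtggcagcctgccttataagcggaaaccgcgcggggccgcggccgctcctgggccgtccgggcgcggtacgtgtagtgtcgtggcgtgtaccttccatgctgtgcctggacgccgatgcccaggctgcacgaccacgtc
Abca1: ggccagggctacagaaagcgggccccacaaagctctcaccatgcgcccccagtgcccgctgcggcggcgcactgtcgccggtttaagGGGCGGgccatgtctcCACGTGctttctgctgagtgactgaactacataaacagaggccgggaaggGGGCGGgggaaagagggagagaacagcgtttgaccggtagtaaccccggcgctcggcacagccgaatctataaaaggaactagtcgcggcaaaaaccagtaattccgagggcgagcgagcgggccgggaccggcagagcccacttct
The Hmgcs1 window held 1 TCACNCCAC match, 4 CCAAT matches and 3 GGGCGG matches. The Srebf2 window held 1 CCAAT and 5 GGGCGG matches, the Insig1 window 1 CCAAT, 3 GGGCGG and 1 E-box match, and the Cyp51 window 1 CCAAT and 1 GGGCGG match. The Abca1 window held 1 E-box and 2 GGGCGG matches and no CCAAT. No matches overlapped each other in these 5 windows.

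The RefSeq table had promoters for 25 of the 32 genes, and none for Fdps, Fdft1, Sqle, Stard4, Abcg1, Scd1 and Scd2. CCAAT was present for 18 of the 25 genes, against 41.1% of all 27025 genes in the table. It was present for 18 of 22 genes of the SREBP side and 0 of 3 genes of the LXR side. GGGCGG was present for 19 of 25 genes, against 38.2% of all genes, CACGTG for 6 of 25, against 8.09%, and TCACNCCAC for Hmgcs1 alone, against 1.44%. Genes with several start sites counted as holding a motif where any of their windows held it. A match describes the letters in these windows and not binding. Only exact matches were counted, so a window without a match may still hold a variant of a motif. The Srebf2 window, for example, holds the near-match tcaccccat, which is neither marked nor counted.

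The 5 regulators spanned 5.32 to 92.5 RPKM. Srebf2, which encodes the SREBP form that mainly drives cholesterol synthesis, had 97.4, 98.7, 86.7 and 87.1 RPKM in replicates 1 to 4, where RPKM is a read count scaled for gene length and sequencing depth. Its mean of 92.5 ± 6.48 RPKM (SD, n = 4) exceeded that of 97.8% of the 11453 genes that averaged 1 RPKM or more. Insig1, which encodes an anchor of SCAP and is itself a known SREBP target, had 26.6, 27.7, 23.5 and 25.0 RPKM. Srebf1, which encodes the SREBP forms that mainly drive fatty acid synthesis, had 23.0, 27.5, 25.9 and 24.2 RPKM, so that the ranges of Insig1 and Srebf1 overlapped. Scap, the sterol sensor and escort, had 10.2 ± 0.458 RPKM. Insig2, the second anchor, was the lowest regulator with 4.66, 5.04, 6.26 and 5.30 RPKM. The order Srebf2, Insig1 or Srebf1, Scap, Insig2 held in all 4 replicates without overlap, apart from Insig1 and Srebf1. The microRNA gene Mir33 lies within Srebf2 on the same strand, and its own row held 4.93 ± 1.77 RPKM. Reads of the Srebf2 precursor and of Mir33 were not separated, and total RNA libraries of this kind do not measure mature microRNAs.

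The mevalonate enzymes, which build isoprenoid units from acetyl-CoA, spanned a wide range of levels. Hmgcs1, which makes HMG-CoA, had 40.03, 33.5, 29.5 and 32.8 RPKM in replicates 1 to 4 and a mean above that of 91.4% of the genes with at least 1 RPKM. Mvd, which makes isopentenyl pyrophosphate, followed with 11.1, 9.26, 6.86 and 9.34 RPKM. The isomerase gene Idi1, the thiolase gene Acat2, and the kinase genes Pmvk and Mvk lay close together, with means of 4.22 ± 0.384, 3.84 ± 0.696, 3.76 ± 0.309 and 2.74 ± 0.583 RPKM (SD, n = 4). Idi1 and Acat2 overlapped in their ranges, as did Acat2 and Pmvk. Fdps, which makes farnesyl pyrophosphate, was the lowest, with 0.503, 0.638, 0.397 and 0.527 RPKM. Its place below all other mevalonate enzymes held in 4 of 4 replicates, which cannot reveal a counting bias shared by all libraries. Fdps overlaps Gm43738 and Gm22935 on the same strand, listed at 0.00755 and 1.49 RPKM, and the effect of these overlaps on its value was not tested. The handling of reads that match several places in the genome was not stated, and the levels of genes with close copies are therefore uncertain. Whether this lowered the value of Fdps was not tested. Acat3, a close paralog of Acat2, was listed at 0.578 ± 0.211 RPKM and Idi2, the paralog of Idi1, at 0.0684 ± 0.110 RPKM.

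The enzymes that join these units into squalene and turn it into cholesterol were expressed at 1.15 to 12.8 RPKM. Cyp51, the lanosterol demethylase, had 16.7, 13.5, 10.2 and 10.8 RPKM in replicates 1 to 4. Fdft1, the squalene synthase, had 11.5 ± 1.00 RPKM, Msmo1, a sterol methyl oxidase, 10.5 ± 1.22, Sqle, the squalene epoxidase that is a rate-limiting step, 8.48 ± 1.53, and Sc5d, a sterol desaturase, 7.40 ± 0.493 (SD, n = 4). Neighbours among these 5 genes overlapped in their ranges. Dhcr7, which performs a last reduction to cholesterol, had 4.23, 3.13, 2.27 and 3.04 RPKM. Lss, which closes the sterol rings, had 2.93 ± 0.439 RPKM and overlapped with Dhcr7. Hsd17b7, a ketosteroid reductase, had 1.87, 2.01, 0.933 and 1.10 RPKM, and Tm7sf2, a sterol reductase, 1.15 ± 0.235 RPKM, and these ranges overlapped. Stard4, which carries cholesterol between membranes, had 4.73, 3.95, 3.47 and 3.65 RPKM. Fdft1 overlaps Ctsb and Cyp51 overlaps Akap9 on the opposite strand, Tm7sf2 overlaps Vps51 on the same strand, and the strand setting used was not given in the sources used here. These neighbours had means of 21.8, 10.6 and 8.62 RPKM, and their share in the 3 sterol genes' values was not tested.

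Fatty acid enzymes ran from 21.6 to 0.516 RPKM. Fasn, the fatty acid synthase, had 24.6, 22.7, 19.7 and 19.4 RPKM, and Acly, which makes cytosolic acetyl-CoA from citrate, had 23.0, 22.3, 19.4 and 20.6 RPKM. These ranges overlapped. Of the desaturases that make monounsaturated fatty acids, Scd2 had 8.03, 6.59, 5.59 and 5.62 RPKM and Scd1 had 3.38, 3.35, 2.10 and 1.81 RPKM. Scd2 was the higher in all 4 replicates, and its range did not overlap that of Scd1. The other desaturases of the cluster, Scd3 and Scd4, were listed at 0.100 ± 0.0455 and 0.0773 ± 0.0553 RPKM. Acaca, the acetyl-CoA carboxylase, had 4.46 ± 0.555 RPKM, and Elovl6, an elongase, 0.693, 0.447, 0.515 and 0.408 RPKM.

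The LXR side was read from 1 receptor and 1 pump at much higher levels than from its counterparts. Nr1h2, which encodes LXRβ, had 41.9, 44.0, 41.4 and 42.8 RPKM and was the second highest and, with a coefficient of variation of 2.69%, the least variable of the 32 genes. Nr1h3, which encodes LXRα, known from macrophages and liver, had 0.236, 0.367, 0.164 and 0.242 RPKM. Abcg1 had 4.20, 6.05, 6.10 and 5.69 RPKM, and Abca1 had 0.515, 0.812, 0.877 and 0.679 RPKM. In both pumps replicate 1 was the lowest and replicate 3 the highest. Summed over the 22 synthesis enzymes and over the 2 pumps, the RPKM were 204, 179, 152 and 164 for enzymes and 4.71, 6.86, 6.97 and 6.37 for pumps in replicates 1 to 4. The ratio of these sums was 43.2, 26.1, 21.8 and 25.8, with a mean of 29.2 ± 9.53 (SD, n = 4) and of 24.5 without replicate 1. It sets 22 genes against 2, and with medians in place of sums the ratio was 2.09, 1.31, 1.10 and 1.30, with a mean of 1.45 ± 0.437 (SD, n = 4). Replicate 1 was the highest and replicate 3 the lowest by both measures. The sums are led by Hmgcs1, Fasn and Acly among the enzymes and by Abcg1 among the pumps. The median over the 32 genes was 5.41 RPKM, against 6.72 RPKM over the genes with at least 1 RPKM.

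**Figure D1:**
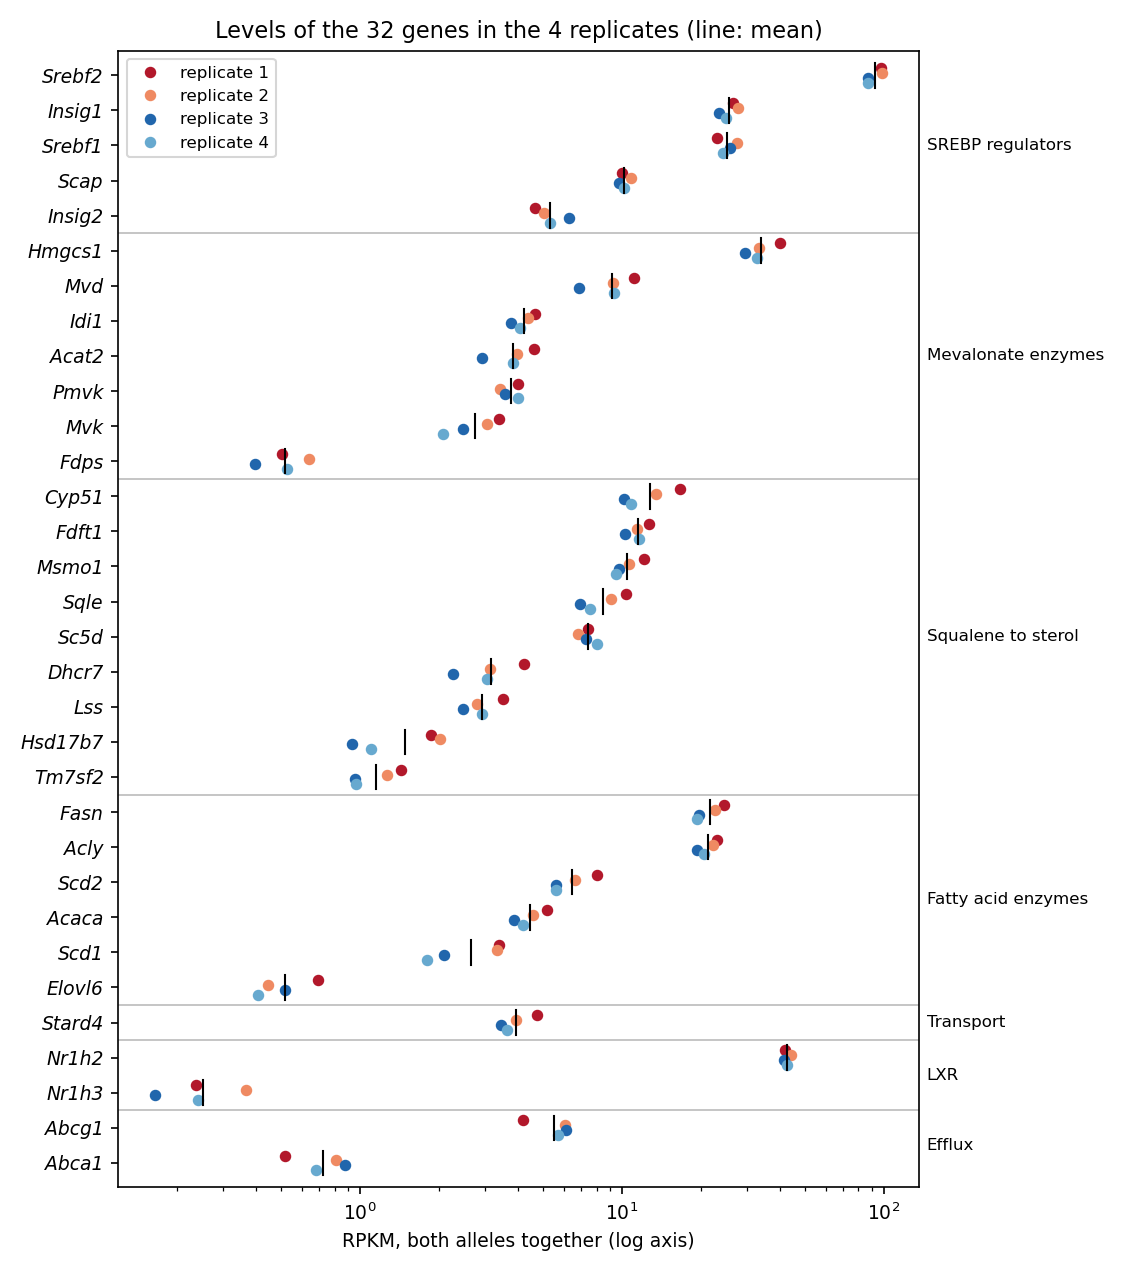
RPKM of both alleles together (log axis) for the 32 genes, grouped by role, with 1 coloured point per replicate and a black line at the mean of 4. Srebf2 is the highest at 92.5 RPKM and Nr1h3 the lowest at 0.252 RPKM, and the red points of replicate 1 are at the right end for most enzymes and at the left end for Abcg1 and Abca1.

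Between animals the synthesis enzymes moved together and the efflux pumps moved the other way. Of the 22 enzymes, 18 had their highest RPKM in replicate 1, where 19.7% of the genes with at least 1 RPKM had theirs. With enzymes of at least 1 RPKM alone the count was 17 of 20. None had its lowest value in replicate 1, against 38.4% of those genes. For 15 of 22 the lowest value was in replicate 3, against 30.2% of those genes, and 13 of 22 were both highest in replicate 1 and lowest in replicate 3, against 9.60%. Both pumps showed the reverse, lowest in replicate 1, as 38.4% of those genes were, and highest in replicate 3, as 17.3% were. Abca1, with a mean of 0.721 RPKM, lies below the 1 RPKM required of those genes. With RPKM rescaled to a common total per replicate, both pumps stayed lowest in replicate 1, against 30.1%. Only 1 of 2 was then highest in replicate 3, against 15.6%. Of the 22 enzymes, 11 were then lowest in replicate 3, against 24.3%, and 9 were lowest in replicate 4, against 35.4%. The pattern was noticed in these 4 animals, and with 1 library per animal and 1 group it was not tested. In bulk RNA, fewer cells of a type and less RNA per cell cannot be told apart.

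The differences were modest in size. Replicate 1 over replicate 3 had a median fold of 1.36 over the 22 enzymes, from 1.02 for Sc5d to 2.00 for Hsd17b7, against 0.993 over all genes with at least 1 RPKM. Dhcr7 was 1.86-fold, Cyp51 1.64-fold, Mvd 1.62-fold and Scd1 1.61-fold higher in replicate 1 than in replicate 3. Relative to a gene's own mean, the median enzyme stood at 1.20, 1.03, 0.867 and 0.951 in replicates 1 to 4, and the median of all those genes at 0.965, 1.05, 0.974 and 1.00. The exceptions to the maximum in replicate 1 were Pmvk and Sc5d, highest in replicate 4, where 20.8% of those genes were highest, and Fdps and Hsd17b7, highest in replicate 2. Stard4 shared the pattern of the enzymes. The regulators did not, with 4 of 5 highest in replicate 2, where 42.1% of the genes with at least 1 RPKM were highest, and Insig2 highest in replicate 3.

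**Figure D2:**
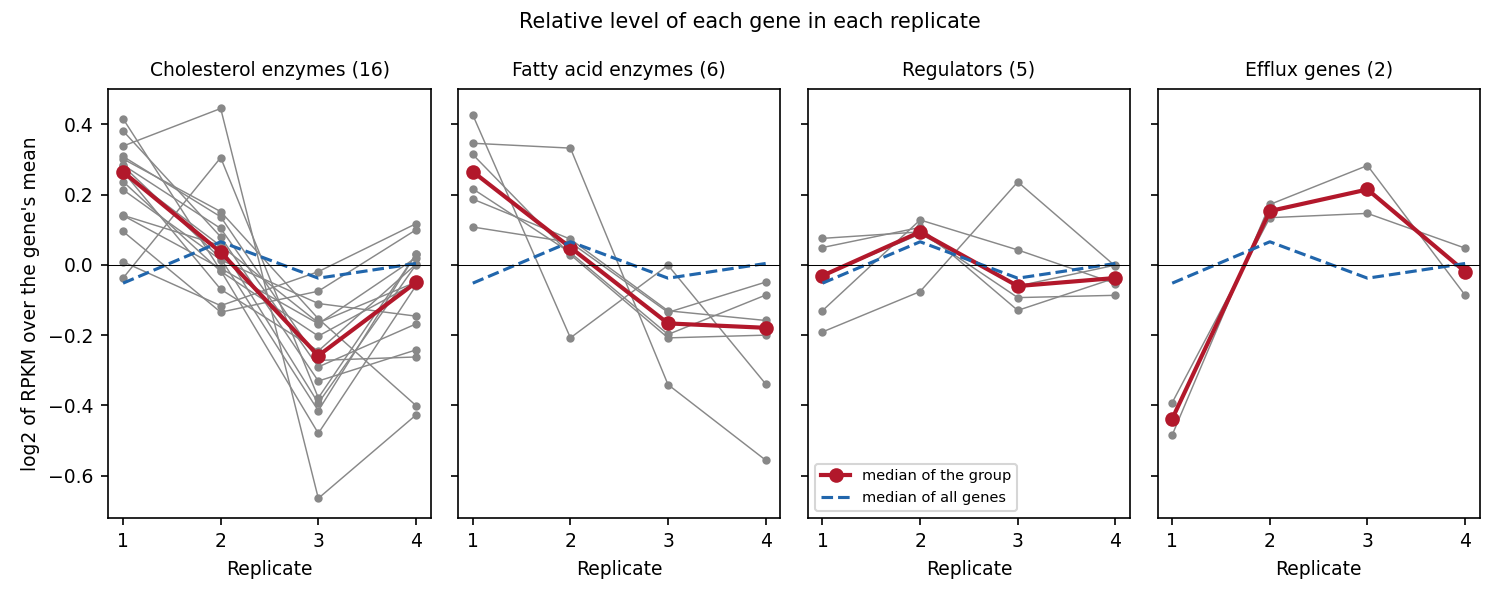
log2 of each gene's RPKM over its own mean of 4 replicates, for cholesterol enzymes, fatty acid enzymes, regulators and efflux genes. Grey lines join the values of 1 gene, red is the group's median and dashed blue the median of the 11453 genes with at least 1 RPKM. The red line is highest in replicate 1 for both enzyme groups (0.26 and 0.27) and lowest there for the efflux genes (-0.44).

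The spread between animals was also wider for enzymes than for many genes. The median coefficient of variation was 17.92% over the 22 enzymes and 7.10% over the 5 regulators, against 11.4% over the genes with at least 1 RPKM. It reached 36.6% for Hsd17b7, 30.9% for Scd1, 25.4% for Dhcr7 and 23.1% for Cyp51, and was 6.67% for Sc5d. The groups were not matched for level. Their median levels were 4.34 RPKM for the enzymes, 25.2 for the regulators and 6.72 for the genes with at least 1 RPKM.

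The enzymes showed the pattern from both alleles. Among reads assigned to the Castaneus allele, scaled to the autosomal reads of that allele, 20 of 22 enzymes were highest in replicate 1, against 30.1% of 10268 autosomal genes with at least 1 RPKM and 20 allelic reads. From the C57BL/6 allele 15 of 22 were, against 30.0%. From both alleles at once it was 14 of 22, against 14.0% of those genes. The median enzyme stood 0.46 above its mean in replicate 1 on the log2 scale from Castaneus and 0.26 above from C57BL/6. Both pumps were lowest in replicate 1 from Castaneus, against 24.7% of the 10268 genes, but only 1 of 2 was from C57BL/6, against 25.6%. Both were highest in replicate 3 from C57BL/6, against 20.9%, but only 1 of 2 from Castaneus, against 21.02%. The alleles are read in the same library and share its cells, so they are not separate replicates.

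**Figure D3:**
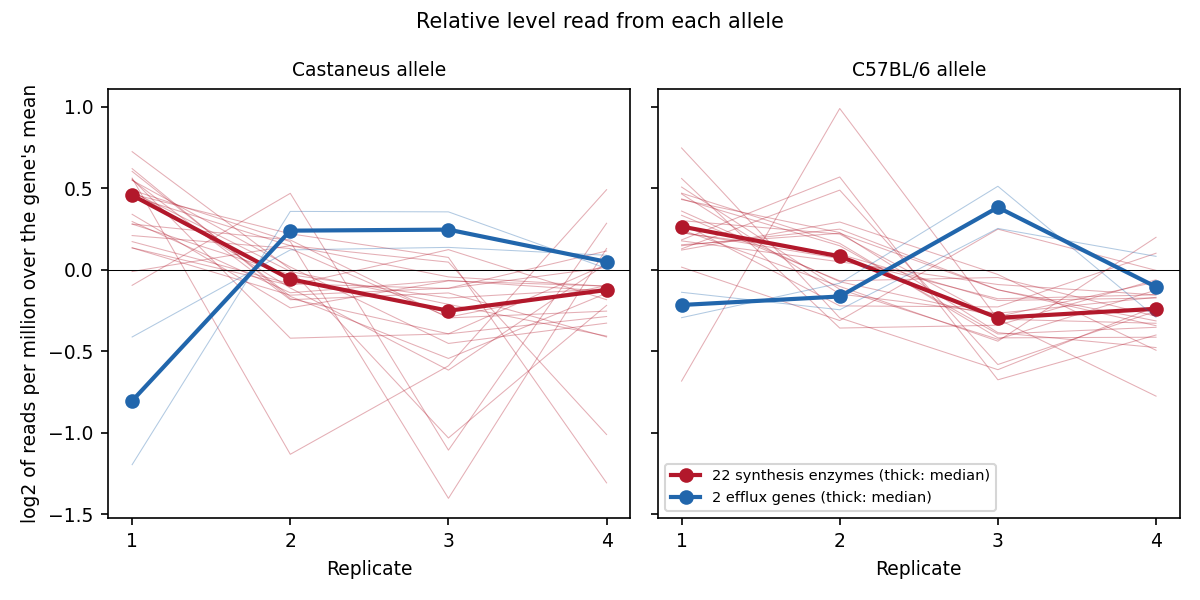
log2 of allelic reads, scaled to the allele's autosomal total, over the gene's mean of 4 replicates, from the Castaneus allele (left) and the C57BL/6 allele (right), for 22 synthesis enzymes (red) and 2 efflux genes (blue). Thin lines join the values of 1 gene and thick lines are medians, and the enzyme median is highest in replicate 1 in both panels.

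Markers of other cells differed between the same libraries. The 8 T cell markers summed to 333, 319, 303 and 337 RPKM in replicates 1 to 4. The 5 B cell markers, all found, summed to 10.5, 6.92, 4.61 and 5.16 RPKM, and 4 of 5 were highest in replicate 1, as the enzymes were. The 8 macrophage and monocyte markers summed to 56.2, 93.4, 44.2 and 36.0 RPKM, most of it Lyz2, while Marco and Mertk were at or near 0 in all 4 libraries. The 3 neutrophil markers summed to 49.8, 83.1, 26.9 and 16.9 RPKM, the 4 dendritic cell markers to 12.5, 14.5, 14.8 and 12.9, with Siglech and Xcr1 at or near 0, and the 2 erythroid markers to 3.21, 4.88, 0.736 and 4.49. The part of these cells in the pattern of the enzymes or of the pumps was not tested. Libraries held 30539711 to 34992012 allelic reads. Of the autosomal genes with 20 to 39 allelic reads, 36.4%, 84.2%, 45.2% and 13.5% were read from 1 allele only in replicates 1 to 4. This share was the highest in replicate 2, and its cause was not tested. The allele shares of low genes are therefore uncertain. Without replicate 2, 19 of 22 enzymes were highest in replicate 1 of the 3 that remain, against 33.7% of the genes with at least 1 RPKM, and without replicate 1, 16 of 22 were highest in replicate 2, against 51.8%.

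Most of the 32 genes were not called as unequal between their alleles, which does not show that the alleles were equal. Castaneus reads were compared with C57BL/6 reads in edgeR's quasi-likelihood test over 13627 autosomal genes that averaged 20 or more allelic reads, with the animal as a block and Benjamini-Hochberg adjustment at an FDR of 5%. Castaneus was the father's allele in every animal, so strain and parent of origin cannot be told apart. A bias of read mapping between the alleles was not tested. Of the 32 genes 31 were tested, and 6 were called, 3 with Castaneus higher and 3 with Castaneus lower. Among all genes tested 22.9% were called, 10.4% with Castaneus higher and 12.5% with Castaneus lower, so that the share of 19.4% among the 31 was near the background. Without replicate 1 the count was 3 of 31 and the calls over all genes 1970, against 3118 with it, and without replicate 4 the calls over all genes were 1996. The median size of the log2 ratio was 0.19 over the 31 genes, against 0.35 over all genes tested. Nr1h3 was not tested, since its Castaneus reads numbered 24, 0, 0 and 3, against 0, 20, 0 and 16 C57BL/6 reads. That is a mean of 15.8 allelic reads, too few for a share to be read.

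Scd2 had by far the largest imbalance of the 31 genes. It had 688, 383, 215 and 360 Castaneus reads in replicates 1 to 4, against 2333, 1630, 1889 and 1524 C57BL/6 reads. Castaneus gave 22.8%, 19.0%, 10.2% and 19.1% of the reads, lower in 4 of 4 replicates, with a mean of 17.8% ± 5.34 (SD, n = 4). The log2 ratio of Castaneus to C57BL/6 was -2.22 with a standard error of 0.19 (edgeR, adjusted p = 1.85e-05). Scd1, which lies in the same cluster on chromosome 19, had 49.4%, 49.4%, 57.8% and 39.7% of its reads from Castaneus and was not called (edgeR, adjusted p = 0.9496). Split by these shares, the Castaneus part of the Scd2 level was 1.83, 1.25, 0.572 and 1.07 RPKM and the C57BL/6 part 6.20, 5.34, 5.02 and 4.55 RPKM. The Castaneus part of Scd1 was 1.67, 1.65, 1.21 and 0.717 RPKM and its C57BL/6 part 1.71, 1.69, 0.886 and 1.09 RPKM. The genes are annotated at 19:44293674-44306864 (Scd2, ENSMUSG00000025203) and 19:44394455-44407879 (Scd1, ENSMUSG00000037071) in mm10.

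Among the mevalonate and sterol enzymes, Pmvk and Msmo1 were the genes called. Pmvk, the kinase that phosphorylates phosphomevalonate (3:89454541-89469013, ENSMUSG00000027952), had 274, 202, 78 and 215 Castaneus reads, against 484, 356, 600 and 479 C57BL/6 reads. Its Castaneus share of 36.1%, 36.2%, 11.5% and 30.98% was under 50% in 4 of 4 replicates, with replicate 3 far below the others. The log2 ratio was -1.37 with a standard error of 0.33 (edgeR, adjusted p = 0.0137). Msmo1 (8:64718139-64733792, ENSMUSG00000031604) had 41.4%, 40.1%, 48.2% and 42.6% from Castaneus, again lower in 4 of 4 replicates. Its log2 ratio was -0.38 with a standard error of 0.09 (edgeR, adjusted p = 0.0116). The call was lost without replicate 1 or 4 (edgeR, adjusted p = 0.0799 and 0.0603). The lowest adjusted p of 12 alternatives was 0.000132, from DESeq2's Wald test.

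The 3 genes called with Castaneus higher were Scap, Insig2 and Srebf1, among 5 regulators tested, where 10.4% of all genes were called in that direction. Fdft1 and Mvk, which were not called, had log2 ratios of 0.36 and 0.29, beside 0.32 for Srebf1. Scap (9:110333288-110384950, ENSMUSG00000032485) had 1572, 1794, 1591 and 1634 Castaneus reads, against 1147, 936, 1025 and 1049 C57BL/6 reads. The Castaneus share was 57.8%, 65.7%, 60.8% and 60.9%, and the log2 ratio 0.69 with a standard error of 0.10 (edgeR, adjusted p = 0.000741). Insig2 (1:121304353-121332589, ENSMUSG00000003721) had 69.1%, 65.1%, 72.3% and 51.0% from Castaneus, with a log2 ratio of 0.90 and a standard error of 0.22 (edgeR, adjusted p = 0.0133). Srebf1 (11:60199089-60222581, ENSMUSG00000020538) had 53.5%, 59.6%, 55.3% and 52.1%, with a log2 ratio of 0.32 and a standard error of 0.08 (edgeR, adjusted p = 0.0162). All 3 were above 50% in 4 of 4 replicates. In edgeR the call of Insig2 was lost on leaving out replicate 1 or 3 (adjusted p of 0.0950 or 0.0764), with 7.91e-05 as the lowest of 12 alternatives. The call of Srebf1 was lost on leaving out the same replicates (edgeR, adjusted p of 0.0537 or 0.0671). Its lowest adjusted p was 0.000342, from DESeq2's Wald test. Srebf1 overlaps Rai1, a gene with a mean of 18.4 RPKM, on the opposite strand, and reads of the stretch they share were not separated.

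The other regulators and the LXR side were not called. Srebf2 had 48.3%, 49.9%, 50.2% and 50.9% of 16719 allelic reads per replicate from Castaneus, which is 49.8% ± 1.11 (SD, n = 4), with a log2 ratio of 0.01 and a standard error of 0.04 (edgeR, adjusted p = 0.873). Insig1 had 47.8% ± 1.38, Nr1h2 50.9% ± 3.34, Abcg1 49.9% ± 4.64 and Abca1 44.5% ± 9.99 from Castaneus. Abca1 gave 31.01% from Castaneus in replicate 1 and 53.1%, 43.0% and 50.9% in replicates 2 to 4.

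Of the 22 synthesis enzymes, all tested, 19 were not called. Hmgcs1 had 54.3%, 46.5%, 54.4% and 53.6% of its reads from Castaneus, and was called as higher once replicate 2 was left out (log2 ratio 0.26, edgeR, adjusted p = 0.0204), against a log2 ratio of 0.15 (adjusted p = 0.275) with it. Acly had 47.2%, 47.9%, 43.2% and 47.7%, with a log2 ratio of -0.18 (edgeR, adjusted p = 0.0788). Fdft1 had 51.1%, 59.6%, 62.1% and 50.3% and was not called (edgeR, adjusted p = 0.114). Its log2 ratio was 0.36, against -0.14 when each gene was centred on its own chromosome, since 58.1% ± 1.17 of the allelic reads of chromosome 14 came from Castaneus. Idi1 had 44.5%, 16.1%, 37.1% and 49.9% and Fdps 45.2%, 27.5%, 23.9% and 53.4%, spreads that left both uncalled (edgeR, adjusted p = 0.142 and 0.409). Sqle with 49.1% ± 2.47, Cyp51 with 46.8% ± 2.95, Fasn with 50.4% ± 4.43, Acaca with 48.5% ± 1.48 and Dhcr7 with 52.3% ± 2.50 lay near 50%. The means of Mvk, Acat2, Sc5d, Lss, Mvd, Tm7sf2, Hsd17b7 and Elovl6 ran from 54.5% for Mvk to 39.1% for Elovl6, and that of Stard4, no enzyme, was 45.7%. None of these 9 genes was called, and none in any of the 12 alternatives that tested it.

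**Figure D4:**
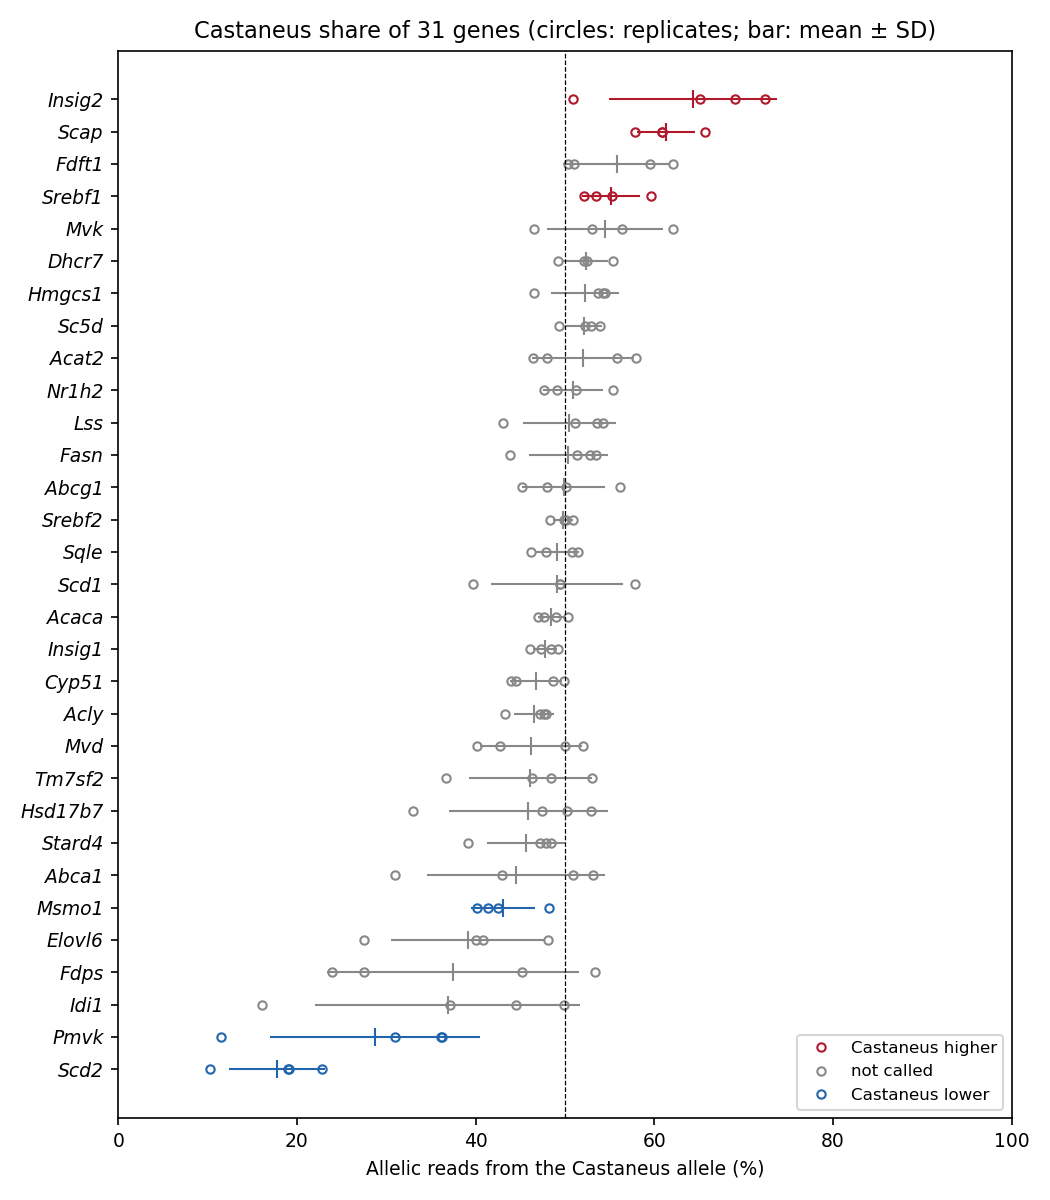
Share of allelic reads from Castaneus (x axis, %) for the 31 genes tested, with circles for the 4 replicates and a bar for the mean ± SD. Insig2, Scap and Srebf1 (red) are above 50% in all 4 replicates, Scd2, Pmvk and Msmo1 (blue) below it, and the other 25 genes (grey) were not called.

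A list of 30 further genes of lipid metabolism, chosen with earlier results of these data known, behaved less uniformly. Of these, 11 were highest in replicate 1 and 12 lowest there, against 19.7% and 38.4% of the genes with at least 1 RPKM. Another 13 were highest in replicate 2, against 42.1%. With the 27 further genes of at least 1 RPKM alone, 9 were highest and 12 lowest in replicate 1. Slc25a1, which exports citrate from mitochondria, had 19.9, 14.95, 13.3 and 14.6 RPKM. It was highest in replicate 1 and lowest in replicate 3, as most of the 22 enzymes were. Lpin1, a phosphatidate phosphatase, had 8.74, 10.9, 10.4 and 9.80 RPKM, with replicate 1 the lowest.

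In the allele test 25 of the 30 genes were tested and 7 were called, 1 with Castaneus higher and 6 lower, which is 28.0%, against 22.9% of all genes. Hsd17b12, an enzyme of fatty acid elongation, had 60.0% ± 4.03 of its reads from Castaneus. The lysosomal cholesterol genes Npc2 and Npc1 had 39.1% ± 1.62 and 44.6% ± 2.19, Lpin1 39.7% ± 2.97, Soat1, which esterifies cholesterol, 40.4% ± 5.98, Slc25a1 39.8% ± 6.56 and Acat1 36.2% ± 6.08 (SD, n = 4). The adjusted p of these 7 genes ran from 1.6e-05 for Npc2 to 0.0164 for Acat1 in edgeR.

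On the X chromosome, where Castaneus is the paternal and, in daughters with the deletion, the inactive X, the cholesterol genes were read from C57BL/6. Ebp, a sterol isomerase, had 0 Castaneus reads of 3368 allelic reads over the 4 replicates, and 3 counts, the limit that a count of 0 allows, would be 0.0891% of them. Nsdhl, a sterol dehydrogenase, had 0 of 1455, with a limit of 0.206%. Mbtps2, a protease that releases SREBP in the Golgi, had 0 of 3059, with a limit of 0.0981%. Acsl4, an acyl-CoA synthetase, had 0.0492% ± 0.0839 of its reads from Castaneus (SD, n = 4). Reads may not be independent molecules, so these limits cover counting error only.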

How the data were processed

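RNA of 4 libraries of 1 group was measured. The authors deposited whole-number counts per gene and allele, not normalized, and RPKM values of both alleles together, whose scaling total was not given in the sources used here, per the file headers. STAR 2.7.1a, featureCounts and mm10 are named in the submitters' processing notes. Allele assignment, duplicates and strand are not given there. Positions came from GENCODE M21, in which all 32 genes were found. The members and lists were chosen with earlier results of these data known.

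Allele counts were fitted with edgeR 4.0.16 (glmQLFit, glmQLFTest; R 4.3.3), with the animal as a block, since both alleles come from the same animal, and the autosomal total as library size. Standard errors are the log2 ratio over the root of F. RPKM were described without a test. Genes that averaged 20 or more allelic reads were tested. Alternatives were other scalings, chromosome centring, DESeq2 1.42.0, no block, other read minimums and leaving out each replicate. All 32 genes are named, and further lipid genes mostly by call; the pattern of replicate 1 was chosen after its values were seen. Replicates were distinct (r of 0.970 to 0.985 on log2 RPKM plus 1, 11453 genes).  The p-values rest on the spread between these 4 replicates, with variances shared in part across all genes tested. The labels name biological replicates, and each was taken here as 1 animal. Python 3.11.15 and matplotlib 3.10.9 were used. The values of 1 further lipid gene are not reported here.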

Additional observations from a re-analysis of the deposited data

Results flagged for a closer look

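Of 64 groups of 4 values looked at (32 RPKM levels, 31 Castaneus shares and 1 ratio), 3 held a replicate far from the other 3, and chance gives about 1 in 20. The Castaneus share of Hmgcs1 was 46.5% in replicate 2, below the others. The Castaneus share of Stard4 was 39.2% in replicate 2, also the lowest. The Castaneus share of Acly was 43.2% in replicate 3. Replicate 2 is the library in which most low genes were read from 1 allele only, and the part of this in the shares of Hmgcs1 and Stard4 was not tested.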

How the results depend on the processing

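Over 12 alternatives, 3 of the 6 genes called, Scap, Scd2 and Pmvk, were called in each. Without the replicate block, which pairs the alleles of 1 animal, 6 of the 32 genes, 5 further lipid genes and 2450 of all genes were called, against 6, 7 and 3118 with it. DESeq2's Wald test called 4764 of all genes and 11 further lipid genes. Leaving out 1 replicate gave 1970 to 3433 calls among all genes, 3 to 8 among the 32 genes and 4 to 8 among further lipid genes. The lowest of these came without replicate 1 (1970 and 3) and without replicate 4 (4, beside 1996 of all genes). The highest came without replicate 2 (3433, 8 and 8), and the cause was not tested. Of the 25 genes tested and not called, 4 were called in at least 1 alternative (Hmgcs1, Idi1, Fdft1 and Acly) and 9 had another sign in at least 1. Fdft1 turned to -0.14 on centring by chromosome. The enzyme to pump ratio was 1.45 with medians in place of sums, and 24.5 to 31.7 without 1 replicate. The number of enzymes highest in replicate 1 was 15 to 20 over 6 alternatives, of which those by allele and without replicate 2 were chosen after seeing the data. The share of all genes compared that were highest in replicate 1 also changed. It ran from 20.3% on rescaling to a common total to 33.7% without replicate 2, against 19.7% in the main setting. Enzymes lowest in replicate 3 numbered 11 to 17 over the same 6 alternatives, against 15 in the main setting. The share of all genes compared that were lowest there was 24.0% to 36.0%, against 30.2%. Nr1h3, Fdps, Tm7sf2 and Elovl6 had the fewest allelic reads of the 32 genes, with means of 15.8, 124, 219 and 230.0 per replicate.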
